A study of Mus musculus with 7 samples.

Results

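The annexins are a family of proteins that bind acidic phospholipids in membranes when calcium rises, and they were followed here by their messenger RNA in mouse primary keratinocytes, the epithelial cells of the epidermis, after silencing of Trp63. The members are the genes Anxa1 to Anxa9 and Anxa11. Every probe set that the platform annotation gives to exactly 1 of these symbols was taken, which yielded 17 of 22626 probe sets and 9 of 12393 named genes. The single probe set that carries Anxa11 also carries other symbols, so Anxa11 was not analysed here. Cells had received either small interfering RNA (siRNA) against Trp63 (5 arrays, replicates 1, 2, 3, 4 and 7) or non-specific siRNA (2 arrays, replicates 5 and 6), and all were collected 48 h after transfection. Trp63 encodes p63, a transcription factor that stratified epithelia need. The labels give no strain, sex or age of the mice, and they do not tell whether each array stands for a culture of its own, so the p-values below measure the spread between these arrays, which may be technical.

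An annexin consists of a conserved core of repeats, which carries the calcium sites and lies flat on the membrane, and of an N-terminal tail that differs between members and binds partners such as S100 proteins. Annexins link membranes to each other and to actin, gather at wounds of the plasma membrane and take part in endocytosis and secretion. In the epidermis Anxa1, Anxa2 and Anxa8 are known as keratinocyte annexins, and Anxa1 is a substrate of the transglutaminases that cross-link the cornified envelope.

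Median intensity lay between 207 and 214 on the 7 arrays, in the linear units of the deposited table, and a probe set whose mean lies below the median over probe sets is called dim. The brightest Trp63 probe set read 541, 519, 457, 504 and 492 with Trp63 siRNA, against 1447 and 1683 with control siRNA (log2 difference -1.61, SE 0.088, limma adjusted p = 1.0e-05). Both other Trp63 probe sets were dim and fell 1.40-fold and 1.45-fold (adjusted p = 0.00228 and 0.000339 by limma), against 3.05-fold for the brightest. Of 10 measured keratinocyte markers 9 fell, Trp63 itself among them, and Krt14 and Krt5 remained among the bright probe sets, with means of 14825 and 11602 under Trp63 siRNA and 17063 and 14460 in the controls. Of 8 markers of simple epithelium 7 rose and none fell, with Krt18 at 1444 under Trp63 siRNA and 129 in the controls. The arrays also differed in melanocyte markers. The mean log2 level of 9 melanocyte markers was 9.29 to 9.41 on silenced replicates 1 and 2 and control replicate 5, and 8.87 to 8.91 on silenced replicates 3, 4 and 7 and control replicate 6, called marker-high and marker-low arrays below. The ratio of the 5′ to the 3′ beta-actin control probe set, a measure of RNA integrity, was 0.803 to 0.879 with Trp63 siRNA and 0.738 to 0.768 with control siRNA, and its part in the results was not tested.

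Silencing of Trp63 moved the annexins in both directions. Anxa9 rose 2.41-fold. Anxa3 rose at its only probe set, Anxa4 at 1 of 2 and Anxa6 at 2 of 3, by 1.20- to 1.32-fold. Anxa7 fell at 3 probe sets and Anxa8 at 1 of 2, and Anxa1, Anxa2 and Anxa5 did not pass the threshold. By probe set, 5 of 17 were higher and 4 were lower at a limma adjusted p of 0.05, where 7.83% of all 22626 probe sets were higher and 8.16% lower. By gene, taking the probe set with the highest mean, 3 of 9 were higher and 1 was lower, beside 8.03% and 8.56% of all named genes. The higher ones were Anxa3, Anxa6 and Anxa9 and the lower one Anxa7, as the brighter probe sets of Anxa4 and Anxa8 did not pass. The arrays of the groups did not overlap for 12 of the 17 probe sets, with the silenced arrays above both controls in 5 and below them in 7, and this held for 36.6% of all probe sets. The median log2 difference was -0.07 over the 17 probe sets and -0.03 over all probe sets. Leaving out the dim ones kept 12 of the 17, and these included 3 of the 5 that rose and all 4 that fell. All 9 probe sets that passed kept their call with marker level as a block. In all 9 the silenced arrays lay entirely above or entirely below both controls. Any subset of arrays with both groups therefore had to give these differences the same sign. This includes the marker-low arrays (3 silenced, 1 control) and the marker-high arrays (2 silenced, 1 control), each fitted alone. Their p-values rest on a lone control, taken to vary like the silenced arrays, in a split chosen after seeing the data, and 9 and 3 of the 9 passed. Bacterial control transcripts were brighter on silenced replicates 2, 3 and 7 than on the other 4 arrays, controls included. Within those 4 the sign was again fixed by the lack of overlap. Calls held there for 2 of the 5 higher (Anxa9 and 1 Anxa6 probe set) and 0 of the 4 lower.

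**Figure D1:**
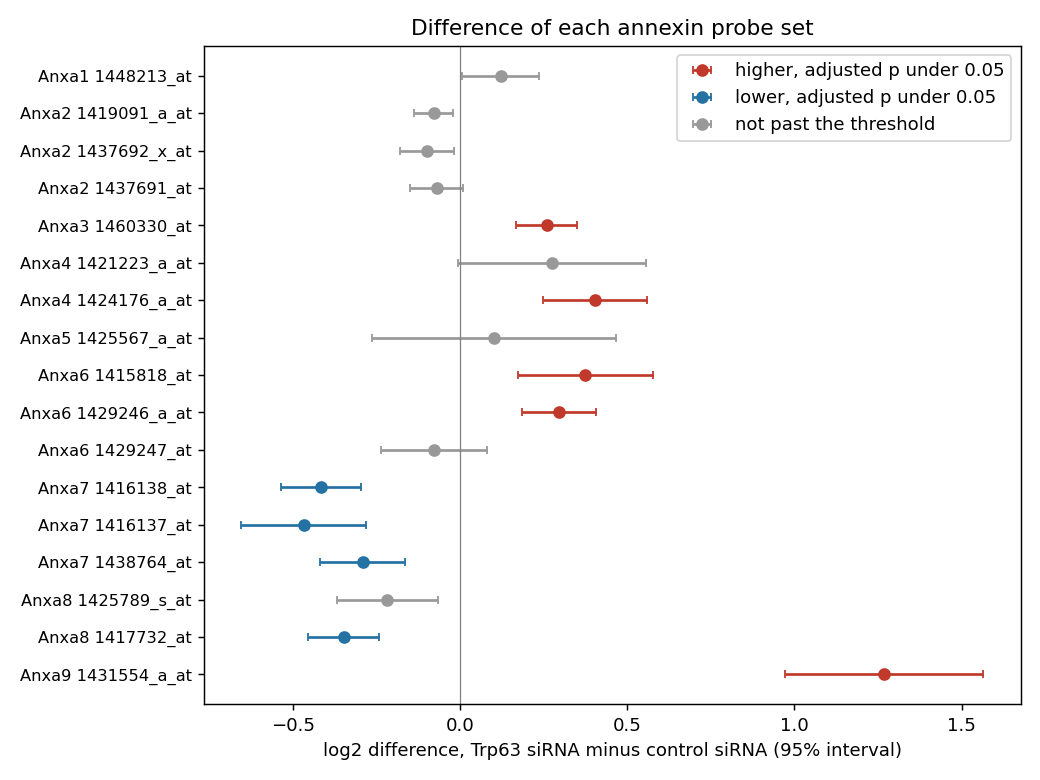
Difference of the 17 annexin probe sets on the log2(intensity + 16) scale, Trp63 siRNA minus control siRNA, as points with the 95% interval from limma (5 and 2 arrays). Anxa9 stands farthest to the right at 1.27, and the 3 Anxa7 probe sets lie between -0.47 and -0.29.

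Anxa9 had the largest difference of the family. Anxa9 is an atypical member whose calcium sites are degenerate, and in humans it is known as pemphaxin, a target of autoantibodies in pemphigus. Its single probe set read 398, 369, 309, 359 and 354 with Trp63 siRNA, against 168 and 114 with control siRNA. Every silenced array was above both controls, and the 2 controls read below the median of their arrays and differed from each other. The difference was 1.27 on the log2 scale (SE 0.13, 95% interval 0.97 to 1.57, limma adjusted p = 0.000312). It was 1.12 on the marker-high arrays alone and 1.45 on the marker-low arrays alone, and 1.02 without control replicate 6, where it still passed (adjusted p = 0.00391).

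Anxa3 and Anxa4 rose at bright probe sets. Anxa3, once named lipocortin III for its inhibition of phospholipase A2, read 4940, 5038, 5337, 5085 and 5273 with Trp63 siRNA, against 4329 and 4235 with control siRNA. All 5 silenced arrays lay above both controls, and the rise was 1.20-fold (log2 difference 0.26, SE 0.040, limma adjusted p = 0.00271). Anxa4 belongs to secretory and absorptive epithelia, where it lies beneath the plasma membrane. The dimmer of its 2 probe sets read 852, 870.1, 939.9, 892 and 932 with Trp63 siRNA, against 691 and 657 with control siRNA, without overlap. By limma it rose 1.32-fold (0.40 on the log2 scale, SE 0.069, adjusted p = 0.00431). The call was lost without control replicate 6 (adjusted p = 0.0603).

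The brighter Anxa4 probe set behaved differently among the silenced arrays. It read 1179, 1161, 1505, 1482 and 1524 with Trp63 siRNA, against 1069 and 1175 with control siRNA. Silenced replicate 2 lay below control replicate 6, and replicates 1 and 2 stood apart from replicates 3, 4 and 7. The difference was 0.28 (SE 0.12, 95% interval -0.006 to 0.56, limma adjusted p = 0.171). It passed with array weights (0.37, adjusted p = 0.0261) and with marker level as a block (0.25, adjusted p = 0.0183). It was 0.13 on the marker-high arrays and 0.35 on the marker-low arrays, each with 1 control. Whether the difference itself varied between these sets of arrays was not tested.

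Anxa6, a member with a duplicated core that is known for binding cholesterol-rich membranes and for its part in endocytosis, was dim at each of its 3 probe sets. The brightest read 238, 203, 189, 214 and 204 with Trp63 siRNA, against 172 and 144 with control siRNA. Another read 157, 145, 138, 146 and 146 with Trp63 siRNA, against 117 and 116 with control siRNA. In both, every silenced array was above both controls. They rose 1.30-fold and 1.23-fold (log2 differences 0.38 and 0.30, limma adjusted p = 0.0207 and 0.0037). The first lost its call without control replicate 6 (adjusted p = 0.199). The remaining Anxa6 probe set averaged 120.2 ± 8.17 (SD, n = 5) with Trp63 siRNA and 128 ± 14.1 (SD, n = 2) with control siRNA, with overlapping arrays (log2 difference -0.08, SE 0.071, limma adjusted p = 0.499), so the probe sets of Anxa6 disagreed.

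Anxa7 fell at all 3 of its probe sets. Anxa7, or synexin, promotes the fusion of granule membranes, and its long N-terminal tail binds the calcium-sensing proteins sorcin and Pdcd6. The brightest read 1940, 1847, 1798, 1851 and 1792 with Trp63 siRNA, against 2463 and 2464 with control siRNA. The second read 365, 333, 298, 313 and 319 with Trp63 siRNA, against 467 and 443 with control siRNA. The dimmest read 206, 197, 199, 209 and 216 with Trp63 siRNA, against 257 and 252 with control siRNA. In each of the 3, all silenced arrays lay below both controls. The falls were 1.33-fold, 1.38-fold and 1.22-fold (log2 differences -0.41, SE 0.053, -0.47, SE 0.083, and -0.29, SE 0.056, limma adjusted p = 0.000992, 0.00525 and 0.00801). Without control replicate 5 the limma adjusted p of the second and of the dimmest was 0.0567 and 0.0671, without control replicate 6 that of the dimmest was 0.0597, and the brightest kept its call without either control.

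Anxa8, a calcium-dependent phospholipid binder of stratified epithelia first described as an anticoagulant, had 2 bright probe sets. One read 4045, 3920.3, 3715, 3696 and 3749 with Trp63 siRNA, against 4948 and 4784 with control siRNA. All silenced arrays lay below both controls, and the fall was 1.27-fold (-0.35 on the log2 scale, SE 0.047, limma adjusted p = 0.00134). The other, with the suffix _s_at, read 4402, 4201, 3855, 3795 and 3795 with Trp63 siRNA, against 4833 and 4486 with control siRNA. The silenced arrays again lay below both controls, with silenced replicate 1 close to control replicate 6, and the difference was -0.22 (SE 0.067, limma adjusted p = 0.0574). The second probe set passed without silenced replicate 1 (adjusted p = 0.00853) and in a fit blocked on marker level (adjusted p = 0.00282), where its difference was -0.25 and -0.20. It also passed with array weights (adjusted p = 0.00569), robust eBayes (adjusted p = 0.0474) and dim probe sets left out (adjusted p = 0.0485). The other settings with both controls left it uncalled. Its adjusted p was 0.107, 0.109 and 0.114 without silenced replicate 3, 4 or 7, and 0.226 with the level of bacterial control transcripts as a block. With 1 control its difference was -0.23 on the marker-low arrays and -0.16 without control replicate 5. The suffix _s_at marks a probe set whose probes match more than 1 transcript, possibly of different genes.

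**Figure D2:**
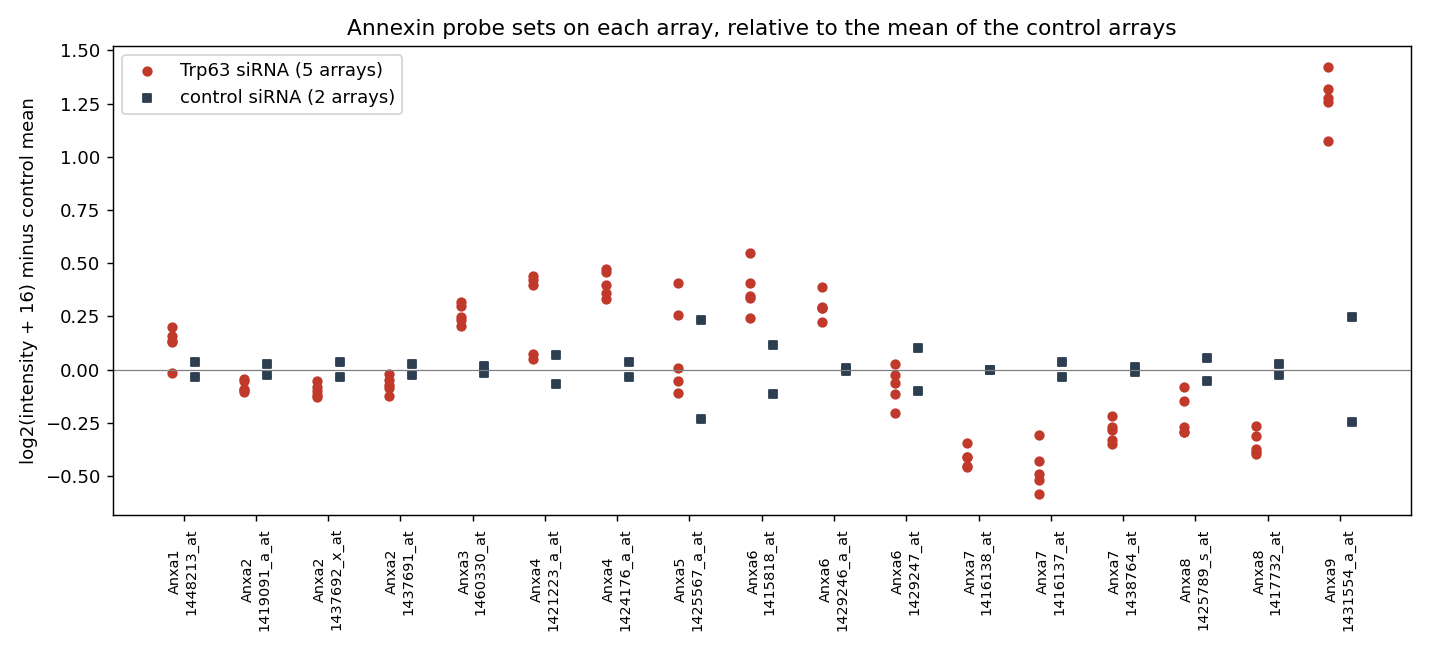
Level of each annexin probe set on each array, as log2(intensity + 16) minus the mean of the 2 control arrays, with Trp63 siRNA as circles and control siRNA as squares. The silenced arrays of Anxa9 lie between 1.07 and 1.42, those of the 3 Anxa7 probe sets all lie below 0, and those of Anxa5 lie on both sides of 0.

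The stretches of 250 bases before the transcription start of Anxa9, the annexin with the largest difference, of Anxa7 and Anxa8, which fell, and of Anxa2, whose window held the most motif matches of the 10, are shown for the letters they hold or lack. They are RefSeq sequences of build GRCm38.p6, read 5′ to 3′ on the strand of the gene, with matches to the motifs searched in capitals. Anxa9 lies at chr3:95315181-95315430 (minus strand), Anxa7 at chr14:20480134-20480383 (minus strand), Anxa8 at chr14:34085729-34085978 (plus strand) and Anxa2 at chr9:69453433-69453682 (plus strand). For Anxa9 and Anxa7 the window before the outer annotated start is shown, and the one before the inner start is not.
Anxa9: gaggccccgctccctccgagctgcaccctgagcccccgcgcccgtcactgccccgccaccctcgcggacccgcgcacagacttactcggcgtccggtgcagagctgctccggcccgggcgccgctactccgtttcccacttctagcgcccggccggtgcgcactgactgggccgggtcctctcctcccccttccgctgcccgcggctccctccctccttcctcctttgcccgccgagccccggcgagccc
Anxa7: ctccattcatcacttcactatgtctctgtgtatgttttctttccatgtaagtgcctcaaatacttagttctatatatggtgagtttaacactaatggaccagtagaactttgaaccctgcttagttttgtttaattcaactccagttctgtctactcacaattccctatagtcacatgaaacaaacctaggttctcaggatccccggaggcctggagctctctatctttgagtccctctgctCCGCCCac
Anxa8: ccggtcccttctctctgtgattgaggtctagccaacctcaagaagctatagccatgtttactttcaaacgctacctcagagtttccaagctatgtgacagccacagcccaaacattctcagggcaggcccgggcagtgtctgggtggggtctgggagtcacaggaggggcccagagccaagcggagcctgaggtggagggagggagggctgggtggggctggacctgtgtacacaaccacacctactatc
Anxa2: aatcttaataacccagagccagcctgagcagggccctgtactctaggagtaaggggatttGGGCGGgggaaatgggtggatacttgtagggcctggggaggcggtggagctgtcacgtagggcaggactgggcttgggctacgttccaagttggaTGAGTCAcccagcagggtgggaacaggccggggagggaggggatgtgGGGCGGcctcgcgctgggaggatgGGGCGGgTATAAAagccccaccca

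Both strands were searched for the TATA box TATAAA, the AP-1 element TGANTCA, the GC box GGGCGG and a pair of p53-family cores written CATGNNNNNNCATG. These letters occurred in 12.4%, 6.75%, 32.7% and 0.49% of 32851 RefSeq windows of the same length. The tables held 10 windows for 7 of the annexins. Anxa1 and Anxa2 were the annexins with a TATA box in this window, starting 32 and 17 bases before the start. Anxa2 also had 3 GC boxes and an AP-1 match 95 bases before the start. Anxa7 has 2 annotated starts whose windows overlap, with 1 GC box match before the outer start and 4 before the inner one, 1 of them the same site. The windows of Anxa4, Anxa5, Anxa8 and Anxa9 held no match, and none of the 10 held the p53-family pair. The GC content was 75.6% before the outer start of Anxa9 and 58.8% before its inner start. For Anxa7 it was 42.4% before the outer start and 62.0% before the inner one, so the order of the genes depended on the start taken. The median over all windows was 52.4%. A match is a description of the letters and shows no binding.

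Anxa1 and Anxa2 did not pass the threshold, and their bright probe sets differed by small amounts between the groups. Anxa1 mediates effects of glucocorticoids and signals through formyl peptide receptors. It read 9679, 10905, 11258, 10712 and 10735 with Trp63 siRNA, against 9539 and 10030.2 with control siRNA. Silenced replicates 2, 3, 4 and 7 were above both controls and replicate 1 lay between them. The difference was 0.12 (SE 0.051, 95% interval 0.006 to 0.24, limma adjusted p = 0.146), and without silenced replicate 1 it was 0.16 and passed (limma adjusted p = 0.00623). It also passed with array weights (limma adjusted p = 0.0207). On the marker-low arrays with their 1 control the difference was 0.12. The other settings with both controls left Anxa1 uncalled. Among them were eBayes without a trend (adjusted p = 0.228) and the level of bacterial control transcripts as a block (adjusted p = 0.545). Anxa2 forms a tetramer with S100a10 that binds plasminogen and its tissue activator at the cell surface. Its bright probe set read 11404, 10976, 11315, 11016 and 10922 with Trp63 siRNA, against 11545 and 11954 with control siRNA. All silenced arrays were below both controls, by a difference of -0.08 (SE 0.026, 95% interval -0.14 to -0.02, limma adjusted p = 0.0729). It passed without silenced replicate 1 (adjusted p = 0.0354), with array weights (adjusted p = 0.037), with marker level as a block (adjusted p = 0.0464) and with dim probe sets left out of the fit (adjusted p = 0.0471). The other settings with both controls left it uncalled. Among them were median centring (adjusted p = 0.2), eBayes without a trend (adjusted p = 0.223) and the level of bacterial control transcripts as a block (adjusted p = 0.252). With 1 control its difference was -0.11 on the marker-low arrays and -0.05 without control replicate 6. The other Anxa2 probe sets were dim, at 99.7 and 89.3 with Trp63 siRNA and 108 and 94.4 with control siRNA, and did not pass (limma adjusted p = 0.0994 and 0.214).

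Anxa5 was highest on the marker-high arrays. Anxa5 binds phosphatidylserine with high affinity, which is why the labelled protein is used to stain dying cells. It read 1840.0, 1659, 1335, 1284 and 1392 with Trp63 siRNA, against 1631 and 1176 with control siRNA. The groups overlapped, and the 3 highest values were those of the 3 arrays with high melanocyte markers. The difference was 0.10 (SE 0.16, 95% interval -0.26 to 0.47, limma adjusted p = 0.707), and it was -0.13 without control replicate 6. On the marker-high arrays it was 0.10 and on the marker-low arrays 0.18, each with 1 control. The melanocyte gene Dct read 4083 and 4463 on silenced replicates 1 and 2, 3749 on control replicate 5, 2306 to 2435 on silenced replicates 3, 4 and 7, and 2453 on control replicate 6. The split was not confined to melanocyte markers. Vim, listed here as a fibroblast marker, read 1509 and 1436 on silenced replicates 1 and 2 and 1285 on control replicate 5. It read 979 to 1070 on silenced replicates 3, 4 and 7 and 762 on control replicate 6. Col1a2, Col3a1, Col5a1, Col6a1, Col6a2 and Pdgfrb were likewise higher on each marker-high array than on every marker-low array. Of these, Col3a1, Col5a1, Col6a1 and Pdgfrb were dim. The fibroblast markers Col1a1, Col5a2, Dcn, Lum, Pdgfra, Thy1 and Postn did not share the split. The part of melanocytes or other cells in the spread of Anxa5 was not tested. In bulk RNA fewer cells of a type and less RNA per cell cannot be told apart.

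**Figure D3:**
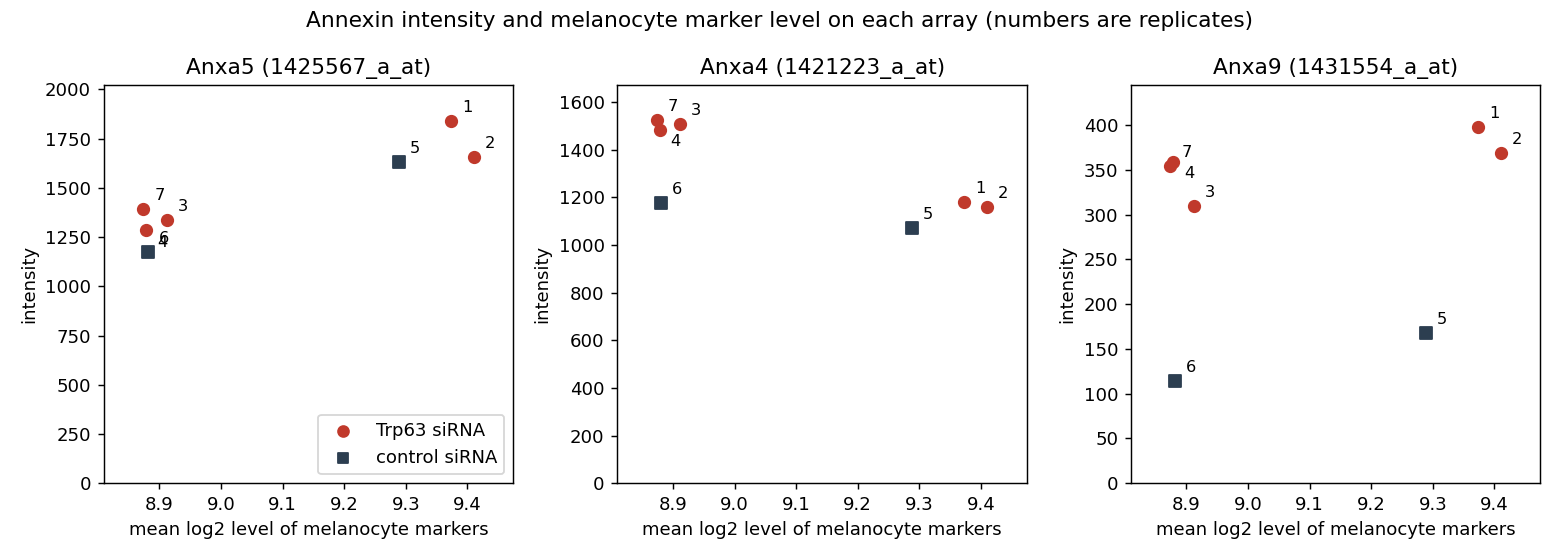
Intensity of Anxa5, of the brighter Anxa4 probe set and of Anxa9 against the mean log2 level of 9 melanocyte markers on each array, with Trp63 siRNA as circles, control siRNA as squares and replicate numbers beside the points. Anxa5 is highest on the 3 arrays to the right (1840.0, 1659 and 1631), Anxa4 is highest on silenced replicates 3, 4 and 7, and Anxa9 separates the groups on both sides.

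The other annexins on the array, Anxa10 and Anxa13, did not pass and were dim. Anxa10, of stomach epithelium, averaged 82.5 ± 3.70 with Trp63 siRNA and 80.2 ± 0.704 with control siRNA at its brighter probe set (SD, n = 5 and 2). Anxa13, of the intestine, averaged 86.4 ± 3.27 with Trp63 siRNA and 87.4 ± 0.429 with control siRNA (SD, n = 5 and 2). Their differences were between -0.02 and 0.03 over 3 probe sets, with limma adjusted p between 0.588 and 0.808.

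Markers of other cell types that could bring annexin messenger RNA were read beside these results. Of 14 fibroblast markers 2 rose (Col1a1 and Col5a2), none fell, and their summed intensity was 3643 to 4336 with Trp63 siRNA and 2817 to 3693 with control siRNA. The highest of the uncalled fibroblast differences were those of Postn (0.58), Thy1 (0.25) and Vim (0.24), and the defining genes Dcn, Lum and Pdgfra were dim in both groups, at 156, 89.0 and 138 with Trp63 siRNA and 153, 88.2 and 139 with control siRNA. None of 9 melanocyte markers passed, with sums of 7003 to 12182 with Trp63 siRNA and 6839 to 10249 with control siRNA. Of 12 immune markers 2 rose (Cd68 and Cd14) and 1 fell (Tyrobp), with sums of 2038 to 2271 with Trp63 siRNA and 2012 to 2110 with control siRNA, and Ptprc averaged 74.9 with Trp63 siRNA and 75.8 with control siRNA. Of 10 endothelial, blood, muscle and fat markers 2 rose (Fabp4 and Acta1), with sums of 2692 to 3290 with Trp63 siRNA and 1466 to 1817 with control siRNA, while Pecam1 and Cdh5 averaged 105 and 90.1 with Trp63 siRNA and 115 and 91.0 with control siRNA. Simple epithelium markers summed to 10220 to 12801 with Trp63 siRNA and 3429 to 4221 with control siRNA. Beside these marker counts, 8.03% of all named genes passed as higher and 8.56% as lower. The part of these markers in the annexin differences was not tested.

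By the smallest root mean square difference between mean-centred log2 values over the 7 arrays, the genes most like Anxa9 were Dnase1l2 (0.0714), Homer2 (0.0838) and Krt80 (0.0840). Krt80, a keratin gene, averaged 2812 ± 238 with Trp63 siRNA and 1286 ± 372 with control siRNA (SD, n = 5 and 2). Like Anxa9, all 3 were higher in control replicate 5 than in control replicate 6. Those most like the second Anxa7 probe set, which had the largest fall of the family, were Rnf20 (0.0319), Eps15l1 (0.0352) and Qpctl (0.0357). Rnf20, a ubiquitin ligase gene for histone H2B, averaged 460.0 ± 32.9 with Trp63 siRNA and 644 ± 6.32 with control siRNA (SD, n = 5 and 2). This measure takes in the difference between the groups itself.

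Genes whose products bind annexins or act with them were counted over 7 lists. Of 84 entries 66 were measured, and 15 rose, 7 fell and 44 did not pass, beside 8.03% and 8.56% of all named genes. Their median log2 difference was -0.0003, against -0.04 over all named genes. The same shares of all named genes stand beside the counts of each list below, and several lists hold few genes.

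Among the S100 and EF-hand partners 2 of 6 measured genes rose and none fell. S100a4, which binds Anxa2, read 4608, 4510.3, 4526, 4283 and 4356 with Trp63 siRNA, against 1616 and 1740 with control siRNA. It rose 2.64-fold with no overlap (limma adjusted p = 9.11e-07). S100a6, known to bind several annexins, rose 1.16-fold at a very bright probe set, averaging 12603 ± 253 with Trp63 siRNA and 10838 ± 604 with control siRNA (SD, n = 5 and 2, limma adjusted p = 0.00228). S100a10, the partner of Anxa2 in the tetramer, averaged 8625 ± 279 with Trp63 siRNA and 8739 ± 710 with control siRNA (SD, n = 5 and 2). Its difference of -0.02 (95% interval -0.12 to 0.09) did not pass (limma adjusted p = 0.835). Pdcd6 and Sri, which bind the tail of Anxa7, and Pef1, the partner of Pdcd6, differed by -0.005, -0.01 and 0.11 (limma adjusted p = 0.962, 0.941 and 0.377), while Anxa7 itself fell.

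Of 16 genes of membrane repair and calpains, 3 rose, 2 fell and 11 did not pass. Cav1, the caveolin of surface caveolae, read 2570, 2689, 2678, 2868 and 2860.3 with Trp63 siRNA, against 5070.1 and 5807 with control siRNA, a 1.98-fold fall (limma adjusted p = 3.22e-05). Ehd1, which drives the recycling of endosomes, rose 1.57-fold, with 1534 to 1612 on the silenced arrays and 1042 and 951 on the controls (limma adjusted p = 0.000179). The calpain catalytic subunit gene Capn1 fell 1.33-fold and the regulatory subunit gene Capns1 rose 1.24-fold (limma adjusted p = 0.00995 and 0.0112), and both lost their calls without control replicate 6 (adjusted p = 0.114 and 0.125). The other rise was that of Chmp4b, a subunit of the ESCRT-III complex that seals membranes (1.14-fold, limma adjusted p = 0.0312), named after its value was seen, as was Dysf. Dysf, the dysferlin gene of muscle membrane repair, was dim at 103 with Trp63 siRNA and 100.4 with control siRNA.

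Of 6 genes of plasminogen activation, the process that the Anxa2 tetramer assists, 1 rose and 1 fell. Plaur, the urokinase receptor gene, read 531, 511, 560, 545 and 551 with Trp63 siRNA, against 315 and 304 with control siRNA, a 1.71-fold rise without overlap (limma adjusted p = 0.000111). Plg was dim, at 108 ± 6.18 with Trp63 siRNA and 124 ± 3.07 with control siRNA (SD, n = 5 and 2), and its fall (limma adjusted p = 0.0454) ended when any 1 array other than silenced replicate 1 was left out.

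Of 9 genes of Anxa1 receptors, phospholipase and the glucocorticoid response, 2 rose and none fell. Sgk1, a kinase gene induced by glucocorticoids and by many stresses, rose 1.86-fold to 4225 ± 411 with Trp63 siRNA, against 2273 ± 328 with control siRNA (SD, n = 5 and 2, limma adjusted p = 0.00063). Dusp1, a MAP kinase phosphatase gene induced by many stimuli, rose 1.98-fold (limma adjusted p = 0.00171). The remaining 7 did not pass. Tsc22d3 and Fkbp5, which glucocorticoids induce, had log2 differences of -0.01 and -0.11. Zfp36 was at 0.47 (limma adjusted p = 0.111), Pla2g4a at 0.16 and Per1 at -0.05. The receptor gene Fpr2 was dim at 101 with Trp63 siRNA and 103 with control siRNA. Nr3c1, the glucocorticoid receptor gene, had a log2 difference of -0.41 (limma adjusted p = 0.119). Those 7 were named after their values were seen.

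Of 8 genes that govern phosphatidylserine exposure, the lipid that Anxa5 binds, 2 rose and none fell. Atp11a, a flippase gene, read 2345, 2607, 2601, 2794 and 2684 with Trp63 siRNA, against 1445 and 1518 with control siRNA, a 1.75-fold rise (limma adjusted p = 0.000116). Plscr3, of the phospholipid scramblase family, rose 1.22-fold (limma adjusted p = 0.0142) and lost its call without either control (adjusted p = 0.11 and 0.0763). Of 13 copines and other calcium-dependent membrane binders, 1 rose and 2 fell. Esyt3, an extended synaptotagmin gene, rose 1.54-fold, the copine gene Cpne2 fell 1.39-fold and the synaptotagmin-like gene Sytl1 fell 1.40-fold (limma adjusted p = 0.0121, 0.00663 and 0.0364). Without control replicate 6 their adjusted p was 0.141, 0.0891 and 0.179, and Sytl1 also lost its call without control replicate 5 or any of silenced replicates 3, 4 and 7.

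Of 8 cornified envelope genes, 4 rose, 2 fell and 2 did not pass. Ivl, encoding the envelope precursor involucrin, fell 2.81-fold to 217 ± 25.9 with Trp63 siRNA, against 657 ± 244 with control siRNA (SD, n = 5 and 2, limma adjusted p = 0.000773), and the transglutaminase gene Tgm3 fell 1.25-fold (limma adjusted p = 0.00566). Ppl, encoding periplakin, rose 1.85-fold (limma adjusted p = 0.000352), and Lor, encoding loricrin, rose 1.83-fold (limma adjusted p = 0.0188). The other rises were Sprr1a and Sprr1b, small proline-rich envelope proteins, at 1.38-fold and 1.16-fold (limma adjusted p = 0.0373 and 0.0319), named after their values were seen. Tgm3 and Lor lost their calls without control replicate 6 (adjusted p = 0.0678 and 0.185).

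**Figure D4:**
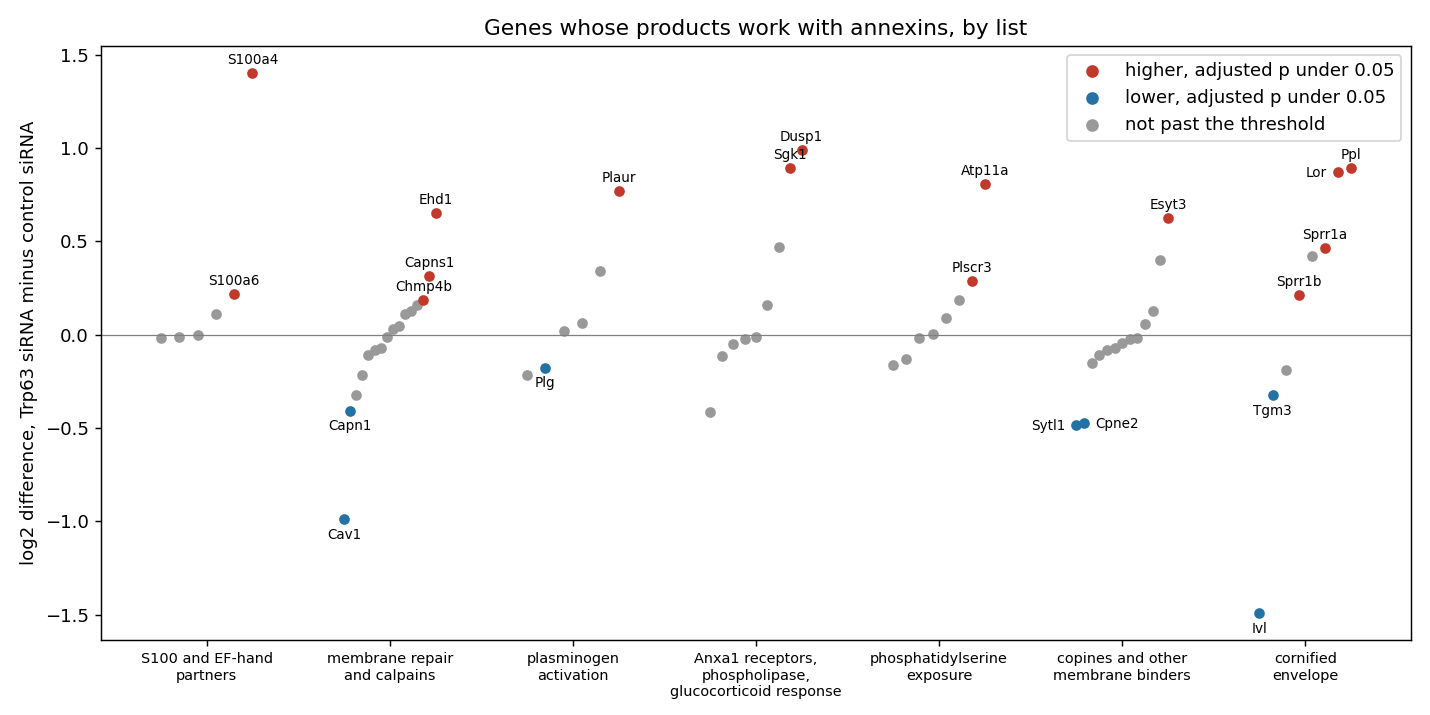
Log2 difference, Trp63 siRNA minus control siRNA, of the 66 measured genes of the 7 partner lists, 1 point per gene at its probe set with the highest mean, with the names of those past the threshold. S100a4 lies highest at 1.40 and Ivl lowest at -1.49, and 44 of the 66 lie among the grey points that did not pass.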

How the data were processed

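Biotin-labelled cRNA was hybridised to Affymetrix arrays, per the labels' protocols. The deposited table holds a linear intensity for each probe set on each array. Their probe summary, background correction and normalisation between arrays are not given in the sources used here, and the values were used as deposited. Of the probe sets, 64 Affymetrix controls were left out of the tests. The platform annotation gave 20380 probe sets 1 symbol, 691 several and 1555 none, and 20351 of the first matched a current gene by Entrez ID. No detection calls were used.

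Values became log2(intensity + 16), which understates changes of dim genes. Groups were compared with limma 3.58.1 in R 4.3.3 (lmFit, eBayes with a variance trend) over all 22626 probe sets, with Benjamini-Hochberg adjustment over all of them and a threshold of 0.05. On simulated data of that size the procedure recovered 42 of 50 probe sets changed by 0.5, 94 of 100 changed by 1 and 50 of 50 changed by 2 on the log2 scale, with 6 false calls. The simulated noise was independent for each probe set and array. It left out the differences between arrays seen here in melanocyte markers and bacterial control transcripts. These counts therefore do not give the recovery or false calls of the real comparison. The array number limits the precision.

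Members and lists were chosen with earlier results of these data known. Named were all member probe sets, Anxa10, Anxa13, Trp63, all S100 and EF-hand partners, up to 4 called genes of each other list by smallest p, and the 3 genes most like the largest rise and the largest fall. A gene outside the family stands for its probe set with the highest mean. Motif searches used Python 3.11.15, and figures used matplotlib 3.10.9.

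Other settings tried were pseudocounts of 1 and 64, median centring or quantile normalisation, a filter on dim probe sets at the 25th percentile or at the median, robust eBayes or eBayes with no trend, array weights, and each array left out in turn. With 1 control left, its spread is taken to be that of the silenced arrays. Blocks and subsets by melanocyte marker level and by level of the bacterial control transcripts (spikes) were added after seeing the data.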

Additional observations from a re-analysis of the deposited data

Results flagged for a closer look

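In all, 44 probe sets were examined for a single array far from the other 4 of the silenced group, and chance marks about 1 in 20. Pef1 was marked in silenced replicate 1, whose gap to the nearest array was 0.836 of the range (778 against 672 to 689). S100a10 was marked in the same array, with a gap of 0.711 of the range (9102.5 against 8390.0 to 8596). No annexin probe set was marked.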

How the results depend on the processing

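No paired analysis was possible because the replicate numbers of the groups do not overlap. The 5 annexin probe sets that rose and the 4 that fell kept their calls under quantile normalisation, median centring, either other pseudocount, the 25th-percentile filter, eBayes without a trend or robust, and array weights, and when any single silenced array was left out. The median filter removed both Anxa6 calls and left 3 higher. Leaving out 1 array at a time gave 3 to 6 annexin probe sets higher and 2 to 6 lower, 8 to 18 partner genes higher and 2 to 9 lower, and 776 to 2326 of all probe sets higher and 598 to 3176 lower. The low ends came without control replicate 6, or for the annexins that were lower without control replicate 5, where 1 control remains, and the high ends came without silenced replicate 1. Array weights called 7 annexin probe sets higher and 6 lower, adding Anxa1, the brighter Anxa4, the bright Anxa2 and the other Anxa8 probe set, and 2823 of all probe sets lower. With the melanocyte split as a block 2895 probe sets and 11 partner genes were lower. With the spike split as a block 1135 probe sets were higher and 785 lower, and 4 partner genes were lower, while no control lies among the arrays with high spikes. On the marker-high arrays 2 annexin probe sets were higher and 1 lower, 3 partner genes were lower, and 874 and 996 of all probe sets were higher and lower. On the marker-low arrays 8 annexin probe sets were higher, 13 partner genes lower, and 3199 and 3684 of all probe sets higher and lower. On the arrays with low spikes 2 annexin probe sets were higher and 0 lower, 6 partner genes higher and 2 lower, and 537 and 246 of all probe sets higher and lower. The cause of these changes was not tested. Uncalled differences near 0 changed sign. Under quantile normalisation Anxa13 was at 0.0025 and S100a10 at 0.0052. Under median centring Anxa13 was at 0.0021, S100a10 at 1.0e-05, Sri at 0.0039 and Pdcd6 at 0.012, and array weights gave Pdcd6 0.012. The melanocyte block gave Sri 0.0047. The spike block and the low-spike arrays gave S100a10 0.0024 and Sri 0.0045. On the marker-low arrays the uncalled Anxa6 probe set was at 0.049, the dimmer Anxa10 at -0.019, S100a10 at 0.041, Sri at 0.036 and Pdcd6 at 0.0074. With 1 array left out the ranges were -0.13 to 0.33 for Anxa5, -0.18 to 0.023 for that Anxa6 probe set, -0.0081 to 0.028 for that Anxa10 probe set, -0.025 to 0.0043 for Anxa13, -0.10 to 0.066 for S100a10, -0.13 to 0.10 for Sri and -0.025 to 0.014 for Pdcd6. With 2 controls and no detection calls, small differences of dim probe sets cannot be resolved.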
